A study of Mus musculus with 5 samples.

Results

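The regions described here were 445 bins of 400 kb in which the chromatin of mouse neural stem cells (NSCs) was listed as compartment A and that of STO fibroblasts as compartment B. They were 445 of 3162 bins with a letter in both cell types on 11 autosomes, and of 5360 such bins on all 19 autosomes, and are called A-to-B bins below. The letters were read from the study's supplementary list of compartments, which gives 1 letter per bin and cell type and was made from Hi-C, an assay of contacts between pieces of chromatin. By the study's methods, the sign of the first principal component of the contact matrix set the letter, and the components themselves were not used here. The sign of such a component is arbitrary on each chromosome, and chromosomes 2, 5, 6, 7, 8, 11, 12 and 17 were left out because their letters were opposite or sparse or, on chromosome 7, because A held fewer genes. That choice was made with gene density and expression of these same samples known, so the direction of expression over the remaining bins as a whole is not independent of it. Over all 19 autosomes, with no chromosome left out, the listed A-to-B bins held 1766 genes called higher in NSCs and 1699 called higher in STO cells.

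The study compared the folding of the genome in female germline stem cells with that in other cells, and its RNA-seq of NSCs and STO cells was examined here. The NSCs, in 2 replicates, were primary cells of E12.5 mouse cortex, labelled C57BL/6 and passages 5 to 8, grown as a monolayer on poly-l-ornithine and laminin in neural basal medium with EGF, bFGF, heparin and B27. The STO cells, in 3 replicates, are a fibroblast line from SIM mouse embryos selected for resistance to thioguanine and ouabain, labelled C57BL/6 and over 30 passages, and grown in DMEM with fetal bovine serum. No allele or agent beyond these is given for either group. Cell type, passage number, medium and substrate differed together, so their parts in any difference cannot be told apart. Nothing in the labels says that replicates came from separate cultures or animals, and the p-values below then measure only the spread between these 5 samples.

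Compartment A is the part of the nucleus that holds most open and transcribed chromatin, and compartment B holds more compact chromatin, often at the nuclear lamina. Cells that differentiate along different lines place some loci in different compartments, and genes for neuronal adhesion, axon guidance and neural transcription factors are known to lie in large, gene-poor regions of this kind. A gene "followed" its bin here when it was higher in NSCs, where the bin was listed A, and "opposed" it when it was higher in STO cells, where the bin was listed B.

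Expression was read as FPKM, that is fragments scaled to the length of the transcript and the depth of the library, summed over the transcripts of a symbol at 1 locus. Differences are NSC minus STO in the mean of log2(FPKM + 1), a scale on which low genes show smaller changes than in FPKM. Genes were tested with limma across the 12292 genes of the series with a mean of at least 1 FPKM in NSCs or STO cells, and called at an adjusted p under 0.05. If read as Poisson error alone, the deposited intervals implied from 15223341 to 22271922 fragments per sample. These are not counts of sequenced fragments and may differ from the true depth. The 6 NSC markers examined summed to 3810 and 4030 FPKM in NSCs and to at most 0.0724 in STO cells, and the 8 fibroblast markers to between 1470 and 1580 FPKM in STO cells and to 11.1 and 10.8 in NSCs. The NSCs also held markers of astrocytes, which summed to 70.5 and 71.3 FPKM over 4 genes with all 4 at 1 FPKM or more, and of oligodendrocytes, which summed to 123 and 125 FPKM over 5 genes with Mog, a marker of mature oligodendrocytes, at 0.503 and 0.578. The 6 neuron markers summed to 29.0 and 24.7 FPKM in NSCs and to between 7.95 and 8.62 in STO cells, where Tubb3 made up nearly the whole sum. The part of these other cells in the values below was not tested, and in such bulk samples fewer cells of a type and less RNA per cell cannot be told apart.

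To show the DNA just upstream of genes that lay in A-to-B bins and moved in opposite directions, the 250 bases before the start of 3 genes that followed their bins and 3 that opposed them are printed 5′ to 3′ with CG dinucleotides in capitals. The sequences are those of RefSeq's table for GRCm38.p6, and the positions are those of their only exact match in mm9, the build of the files.
Igfbp2, chr1:72870804-72871053, + strand: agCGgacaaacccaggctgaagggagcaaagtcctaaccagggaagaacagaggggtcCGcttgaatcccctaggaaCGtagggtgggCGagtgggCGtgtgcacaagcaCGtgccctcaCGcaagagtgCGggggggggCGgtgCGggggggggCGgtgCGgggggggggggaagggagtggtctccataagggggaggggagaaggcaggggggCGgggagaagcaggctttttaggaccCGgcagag
Cntn1, chr15:91881346-91881595, + strand: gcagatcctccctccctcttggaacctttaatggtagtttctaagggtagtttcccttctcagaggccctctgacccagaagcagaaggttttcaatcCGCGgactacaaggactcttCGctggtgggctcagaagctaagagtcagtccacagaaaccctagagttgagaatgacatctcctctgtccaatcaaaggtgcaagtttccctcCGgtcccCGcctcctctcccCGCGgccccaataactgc
Ntrk2, chr13:58907680-58907929, + strand: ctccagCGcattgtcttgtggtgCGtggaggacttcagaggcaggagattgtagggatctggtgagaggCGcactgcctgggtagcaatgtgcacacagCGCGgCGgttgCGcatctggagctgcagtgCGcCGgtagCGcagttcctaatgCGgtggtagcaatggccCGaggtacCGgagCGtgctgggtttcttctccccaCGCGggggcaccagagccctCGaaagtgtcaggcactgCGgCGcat
Tgfbi, chr13:56710697-56710946, + strand: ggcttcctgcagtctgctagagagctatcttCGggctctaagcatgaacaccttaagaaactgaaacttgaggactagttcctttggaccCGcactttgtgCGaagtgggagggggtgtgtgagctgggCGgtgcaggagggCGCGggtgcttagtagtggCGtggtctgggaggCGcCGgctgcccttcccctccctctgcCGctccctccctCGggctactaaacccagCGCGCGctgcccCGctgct
Plpp2, chr10:78996533-78996782, - strand: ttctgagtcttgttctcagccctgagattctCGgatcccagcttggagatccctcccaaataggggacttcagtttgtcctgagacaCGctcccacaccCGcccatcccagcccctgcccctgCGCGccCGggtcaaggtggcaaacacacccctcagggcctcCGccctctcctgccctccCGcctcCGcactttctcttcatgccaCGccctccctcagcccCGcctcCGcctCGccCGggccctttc
Dram1, chr10:87819821-87820070, - strand: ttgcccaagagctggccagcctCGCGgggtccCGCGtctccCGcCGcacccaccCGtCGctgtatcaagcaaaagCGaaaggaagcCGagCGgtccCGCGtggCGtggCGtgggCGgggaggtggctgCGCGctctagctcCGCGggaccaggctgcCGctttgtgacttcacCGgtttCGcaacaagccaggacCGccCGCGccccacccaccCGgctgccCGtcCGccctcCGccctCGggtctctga
The number of CG dinucleotides was 14, 7 and 19 before Igfbp2, Cntn1 and Ntrk2, and 15, 14 and 31 before Tgfbi, Plpp2 and Dram1. These printed genes overlapped between the 2 directions, which does not show that the directions are alike. The median over the 27025 symbols of the table was 6. The table held a promoter for 465 of the 609 tested genes of the A-to-B bins, and their median was 16. Because this is under 80% of the genes, the 2 directions are not compared over the whole set here. Of the 20 genes with the largest differences, 14 had a promoter in the table, and the following motifs were searched in them on both strands. CANNTG, the E-box of basic helix-loop-helix factors, was found before Igfbp2, Ntrk2, Eva1b and H2ac24, and in 66.0% of all promoters of the table. TGAGTCA, the site of AP-1, was found before Dedd only, and in 4.43% of all promoters. ATGCAAAT, the octamer, and ATTGTT, the core of SOX sites, were found before none of the 14, and in 1.61% and 9.65% of all promoters.

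The 445 bins covered 178.0 Mb and fell into 213 runs of adjacent bins, of which 105 were a single bin and the longest had 9 bins. They held 1245 of the 25414 genes of the series, or 6.99 genes per Mb, against 13 per Mb in bins listed A in both cell types, 5.43 in bins listed B in both and 4.9 in bins listed B in NSCs and A in STO cells. No gene lay in 98 of the bins. Of the 1245 genes, 609 passed the filter on low values and were tested, 346 were listed at 0 in every sample and 290 were above 0 but too low. Among the genes left out were 30 chemosensory receptor genes, 27 of them at 0 in every sample. The locus of 1155 genes lay whole within A-to-B bins and that of 90 crossed an edge.

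The A-to-B bins held more genes that were higher in NSCs than genes that were higher in STO cells. Of the 609 tested genes, 361 (59.3%) followed their bins, 175 (28.7%) opposed them and 73 were not called, against 43.7% of all 12292 tested genes called higher in NSCs and 41.9% called higher in STO cells. With a difference of at least 1, 242 genes (39.7%) followed and 53 (8.70%) opposed, against 21.3% and 17.1% of all tested genes. The gap was wider among large differences. A difference of at least 2 was reached by 135 genes (22.2%) that followed and 21 (3.45%) that opposed, against 9.36% and 6.70% of all tested genes. At least 4 was reached by 47 (7.72%) and 5 (0.821%), against 2.85% and 1.72%. H2ac24 and Dedd, which are uncertain as given below, are among the 5. No overlap between NSC and STO samples was seen for 372 genes higher in NSCs and 181 higher in STO cells, but 89.9% of all tested genes did not overlap either. Genes below a mean of 1 FPKM in 1 cell type passed the filter only through the other, so being tested left them only 1 direction. The counts by size are therefore descriptions and not a test. With every gene above 0 in any sample kept, 463 followed and 196 opposed, with a median difference of 0.17. The shares over all tested genes include the chromosomes left out.

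Sample by sample, the median of log2(FPKM + 1) over the 609 genes was 3.39 and 3.42 in the NSC replicates and 2.77, 2.71 and 2.78 in the STO replicates. Over all 12292 tested genes it was 3.57 and 3.61 in NSCs and 3.65, 3.62 and 3.64 in STO cells. The A-to-B genes were thus lower than the median gene in every sample, and further below it in STO cells. The median difference was 0.55 with quartiles of -0.28 and 1.82, beside 0.02 over all tested genes. It was -0.44 over the 390 tested genes in bins with the opposite letters, 0.04 over 4182 genes in bins listed A in both and 0.10 over 526 genes in bins listed B in both.

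**Figure D1:**
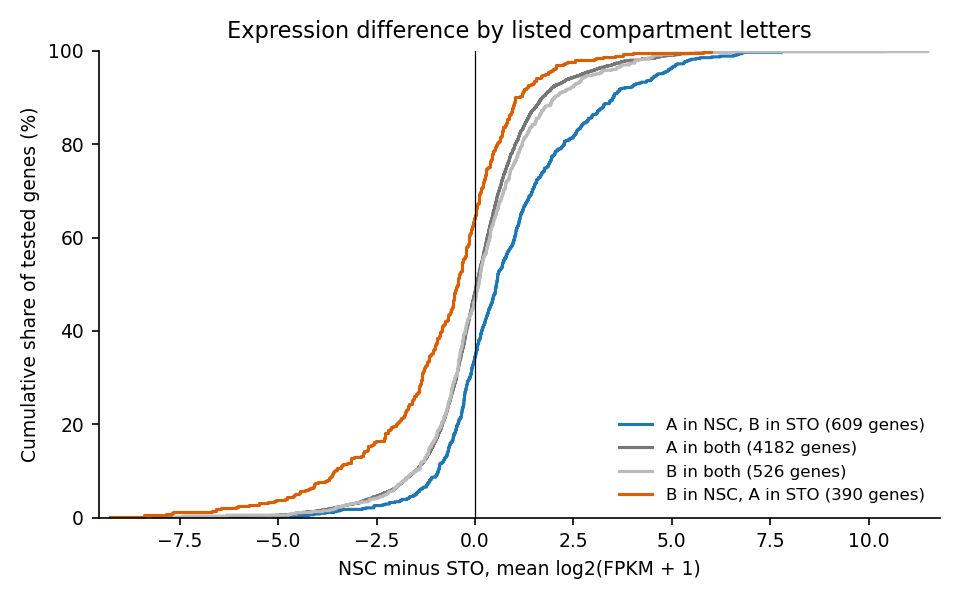
Cumulative share of tested genes (percent, y axis) against the difference NSC minus STO in mean log2(FPKM + 1) (x axis) for the 4 combinations of letters on the 11 autosomes, 1 line each. The line of the 609 genes of A-to-B bins lies right of the others, with a median of 0.55, and that of the 390 genes with the opposite letters lies left, with a median of -0.44.

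Many of these genes were near 0 in one cell type. A mean of at least 1 FPKM in NSCs with a mean under 0.1 FPKM in STO cells was seen for 152 of the 609 genes (25%), and the reverse for 7 (1.15%). The 7 include H2ac24 and Dedd, which are uncertain as given below. Over all tested genes the shares were 8.45% and 3.03%. In bins listed B in both cell types, 71 of 526 genes (13.5%) were at such levels in NSCs only. Before any filter, 33.9% and 35.3% of the 1245 genes were listed at 0 in the NSC replicates, and 50.1%, 51.2% and 47.9% in the STO replicates. At or above 1 FPKM were 47.4% and 46.7% in NSCs and from 33.3% to 33.7% in STO cells.

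On each of the 11 autosomes more genes followed than opposed. These 11 were kept with expression of these samples known, so the agreement between them is not independent of that choice. Chromosome 1 held 45 that followed and 12 that opposed, and chromosome 18 held 30 and 7. On chromosome 9 the numbers were closest in proportion, 27 and 22, and its median difference of -0.07 was the only one below 0. The highest median was 1.58, over the 14 tested genes of chromosome 16, where 8 followed and 5 opposed.

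**Figure D2:**
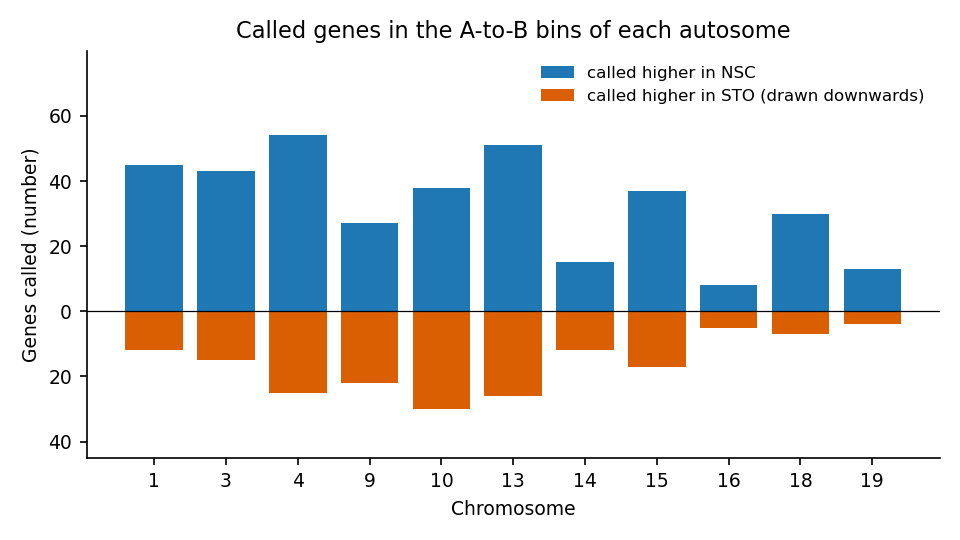
Number of genes in A-to-B bins (y axis) called higher in NSC (bars upwards) and higher in STO (bars downwards) on each autosome examined (x axis). The upward bar is the longer on all 11, from 8 against 5 on chromosome 16 to 54 against 25 on chromosome 4. The 11 were kept with expression of these samples known.

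The genes with the largest differences in favour of NSCs included a secreted binding protein, adhesion molecules, receptors and transcription factors of the neural lineage. Igfbp2, which binds insulin-like growth factors, was at 1290 and 1440 FPKM in the NSC replicates and was listed at 0 in all 3 STO replicates. Gap43, a phosphoprotein of growth cones, was at 362 and 360 FPKM in NSCs and at 0.818, 0.416 and 0.693 FPKM in STO cells. Cntn1, an adhesion molecule of the immunoglobulin family on axons and glia, was at 106 and 117 FPKM in NSCs and listed at 0 in every STO replicate. The levels of the NSC and STO samples did not overlap for any of the 3, and the differences were 10.42 ± 0.06 (SE, adjusted p = 3.5e-09), 7.79 ± 0.11 (adjusted p = 1.3e-08) and 6.81 ± 0.06 (adjusted p = 5.1e-09). Igfbp2 lies at chr1:72871054-72899045, in a bin that the list also gives as A in female germline stem cells and spermatogonial stem cells.

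Khdrbs3, an RNA-binding regulator of splicing, was at 108 FPKM in both NSC replicates and at 0 in STO cells. Pou3f3, a POU transcription factor of the developing cortex, was at 116 and 92.1 FPKM in NSCs and at 0.0145, 0 and 0 in STO cells. For Ednrb, the endothelin receptor type B, the values were 98.9 and 98.8 FPKM in NSCs and 0 in STO cells. All 3 genes had no STO sample near the NSC level, with differences of 6.77, 6.70 and 6.64. Car2, a cytosolic carbonic anhydrase, was at 119 and 126 FPKM in NSCs and between 0.233 and 0.414 in STO cells. Rfx4, a winged-helix factor of the neural tube, was at 64.7 and 62.4 FPKM against 0 in each STO replicate. Ntrk2, the receptor for brain-derived neurotrophic factor, was at 51.6 and 51.8 FPKM against 0, a difference of 5.72 ± 0.05 (SE, adjusted p = 5.1e-09). No estimate of a tested gene in the A-to-B bins, those listed at 0 included, had a status other than OK in the files.

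Eno1b, also among the 10, was listed at 99.0 and 109 FPKM in NSCs and at 0.503, 0.439 and 0.281 in STO cells. It is a near-identical copy of the enolase gene Eno1 of chromosome 4, which was at 1250 and 1150 FPKM in NSCs and between 608 and 743 in STO cells, and how the fragments of the 2 genes were divided is uncertain.

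The genes with the largest differences in favour of STO cells included proteins of the matrix and of mitochondria and lysosomes. Tgfbi, a secreted matrix protein induced by TGF-beta, was at 0.178 and 0.173 FPKM in NSCs and at 40.3, 38.1 and 41.2 in STO cells. Tspo, a protein of the outer mitochondrial membrane, was at 0.966 and 1.59 FPKM in NSCs and at 56.7, 42.9 and 48.0 in STO cells. Plpp2, a phospholipid phosphatase, was at 1.25 and 1.22 FPKM in NSCs and at 48.0, 42.6 and 45.9 in STO cells. None of the 3 overlapped between cell types, with differences of -5.12 ± 0.06 (SE, adjusted p = 6.5e-09), -4.47 ± 0.16 (adjusted p = 6.5e-07) and -4.38 ± 0.07 (adjusted p = 1.5e-08). Tgfbi lies at chr13:56710964-56740700 and Tspo at chr15:83394003-83404633, in bins also listed A in both germline stem cell types.

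Nid2, a component of basement membranes, was present in both cell types, at 4.02 and 4.45 FPKM in NSCs and at 73.5, 71.7 and 70.0 in STO cells. Its locus overlaps that of Rtraf by 386 bases. Zc3h12a, the ribonuclease regnase-1, was at 0.204 and 0.248 FPKM in NSCs and at 14.3, 13.3 and 13.6 in STO cells. Dram1, a lysosomal membrane protein linked to autophagy, was at 0.295 and 0.455 FPKM against 13.6, 14.0 and 13.9. These 3 stood clear of overlap by a wide margin, with differences of -3.80, -3.59 and -3.43. Eva1b, a small transmembrane protein, and the non-coding RNA Snhg18 had differences of -3.94 and -3.51.

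The remaining 2 of the 10 genes are uncertain. H2ac24, a replication-dependent histone gene of 0.452 kb, was listed at 0 in NSCs and at 12.2, 17.2 and 26.5 FPKM in STO cells, but its whole locus is shared with a transcript of H2ac23. Their sum was 32.7 and 67.4 FPKM in NSCs and 27.3, 45.5 and 47.0 in STO cells, which overlapped. Dedd, which has a death effector domain, was listed at 0 in NSCs and at 15.3, 16.5 and 16.3 FPKM in STO cells, and its locus overlaps by 265 bases that of Nit1, which was at 33.7 and 30.2 FPKM in NSCs and between 9.31 and 11.8 in STO cells. The sum of Dedd and Nit1 was higher in NSCs, at 33.7 and 30.2 against 25.6, 25.9 and 28.2 FPKM.

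**Figure D3:**
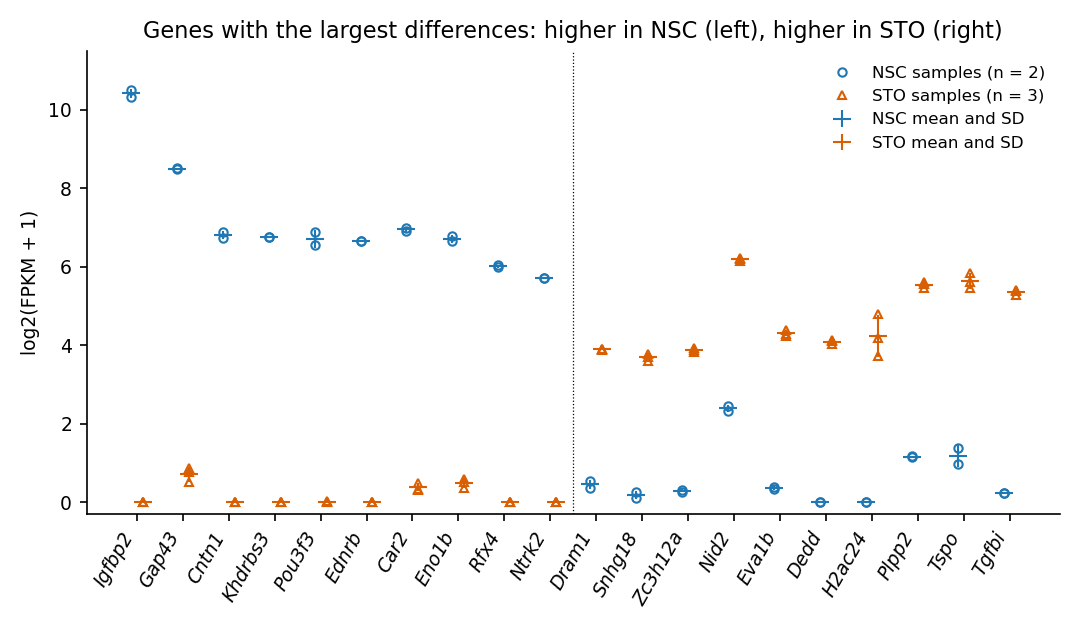
Level in log2(FPKM + 1) (y axis) of the 10 genes with the largest difference towards NSC (left of the dotted line) and the 10 towards STO (right), by gene (x axis). Circles are the 2 NSC samples, triangles the 3 STO samples, and bars the mean and SD. Cntn1, Khdrbs3, Ednrb, Rfx4, Ntrk2 and Igfbp2 sit at 0 in all STO samples, and H2ac24 shows the widest spread among STO samples, from 12.2 to 26.5 FPKM.

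The neural genes of the A-to-B bins were grouped by role. Genes below a mean of 1 FPKM in STO cells passed the filter only through NSCs, so being tested left them only 1 direction. The counts of genes that followed within these lists are therefore descriptions and not a test. For the counts by list, the A-to-B bins held 1245 of all 25414 genes of the series. Of 78 neural transcription factors, 10 lay in A-to-B bins, 8 were tested and all 8 followed, with a median difference of 2.98. Over the whole series 47 of the 62 tested factors of this list were higher in NSCs and 14 lower, with a median of 2.24. Hes5, a Notch target that holds back neuronal differentiation, was at 23.3 and 22.2 FPKM in NSCs and at 0, 0.0304 and 0 in STO cells. Its samples did not overlap between cell types, with a difference of 4.55. Pou3f2, a relative of Pou3f3, was at 7.82 and 7.32 FPKM and the homeobox factor Prox1 at 6.09 and 6.52 in NSCs, and both were listed at 0 in STO cells. Tle4, a Groucho corepressor, Mef2c, a MADS-box factor, and Nfia, which acts in gliogenesis, were expressed in both cell types, with differences of 2.52, 1.5 and 1.12. Dach1 and Otx2 lay in the bins and were too low to be tested.

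Of 88 genes for neural adhesion and axon guidance, 18 lay in A-to-B bins, 17 were tested and 17 followed, with a median of 3.27. In the whole series 55 of the 70 tested genes of this list were higher in NSCs and 13 lower, and the median was 2.23. Beside Gap43 and Cntn1 this group held Dab1, the adaptor of reelin signalling, at 48.7 and 49.0 FPKM in NSCs and at 0, 0.0337 and 0.0109 in STO cells. Astn1, which acts in the migration of neurons along glia, was at 38.1 and 40.6 FPKM against 0 in STO cells. Ntm, of the IgLON family of adhesion proteins, was at 30.4 and 31.3 FPKM against 0.0257, 0.0134 and 0. These 3 genes were near absent from STO cells, with differences of 5.62, 5.33 and 4.97. Cadm1, a synaptic adhesion molecule, differed by 4.54. The guidance receptors Robo1, Ephb1, Dcc and Unc5a differed by 2.95, 2.83, 2.19 and 1.04. The smallest difference was that of the ephrin receptor Epha4, 0.34 ± 0.04 (SE, adjusted p = 0.00034), at 1.39 and 1.40 FPKM in NSCs and at 0.883, 0.917 and 0.887 in STO cells. Epha3 was too low to be tested. Sema5a, also of this list, lies partly inside an A-to-B bin but was placed outside by its midpoint, and was not called.

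All 4 genes of radial glia and astrocytes that lay in the bins followed, with a median of 4.49, and series-wide 36 of 41 such genes were higher in NSCs and 4 lower. Glul, the glutamine synthetase of astrocytes, was at 179 and 161 FPKM in NSCs and at 16.0, 18.1 and 16.6 in STO cells, a difference of 3.26. Aqp4, the water channel of astrocyte endfeet, was at 1.60 and 1.83 FPKM against 0, 0.0076 and 0. Ednrb and Ntrk2 were the other 2. Of 10 genes of neurons and synapses in the bins, 6 were tested and 6 followed, with a median of 2.11, and series-wide 44 of 48 were higher in NSCs and 3 lower. The potassium channel subunit Kcnd3 was the highest of them, at 32.2 and 34.2 FPKM in NSCs and at no more than 0.0325 in STO cells. Grik3 and Grik1, subunits of kainate receptors, differed by 3.16 and 1.32, the neuregulin receptor Erbb4 by 2.27, the potassium channel Kcnq5 by 1.94 and synaptotagmin-1, Syt1, by 1.13. Cacna1e, Drd1, Kcnq3 and Trpm3 were too low to be tested.

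Of the 99 genes of matrix and mesenchyme in the series, 6 lay in A-to-B bins, which held 1245 of all 25414 genes. Of these 6, 3 were tested, and the 3 did not all go with the direction of that list in the series. There 72 of 85 tested genes were higher in STO cells and 12 higher in NSCs. Tgfbi opposed its bin as given above. Col19a1, a collagen with interrupted triple helices, was at 1.99 and 1.85 FPKM in NSCs and listed at 0 in STO cells, and Cdh2, N-cadherin, which neural progenitors also use, was at 44.7 and 43.9 FPKM in NSCs and at 14.7, 16.4 and 14.5 in STO cells. Both followed, with differences of 1.55 and 1.49. Adamtsl1, Col8a2 and Col9a1 were too low to be tested.

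The 3 genes of the A-to-B bins with the highest mean FPKM over all 5 samples encode proteins of the small ribosomal subunit, a family with many processed pseudogenes, so their fragments may be shared with copies. Rpsa was at 823 and 850 FPKM in NSCs and at 1240, 1140 and 1160 in STO cells, and Rps6 at 527 and 517 FPKM against 730, 763 and 693. Both opposed, by -0.50 and -0.48. Rps12 was at 1370 and 969 FPKM in NSCs and at 813, 713 and 805 in STO cells, a difference of 0.57 ± 0.16 (SE, adjusted p = 0.014) that fell to 0.32 and was not called without NSC replicate 1, and was 0.14 and not called after quantile normalization.

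Long genes followed their bins most often. The length classes were chosen after the values had been seen. Genes below a mean of 1 FPKM in STO cells were again tested only through NSCs. All 34 tested genes with a locus of 400 kb or more, that is at least as long as a bin, followed, with a median difference of 2.57. Among all 204 tested genes of that length in the series 144 (70.6%) were higher in NSCs and 46 lower. In bins listed A in both cell types the numbers were 33 higher and 20 lower of 59, in bins listed B in both 10 higher of 10, and in bins with the opposite letters 3 higher and 5 lower of 9. For loci of 100 to 400 kb, 84 of 110 genes in A-to-B bins followed (76.4%) and 18 opposed, against 50.5% higher among all genes of that length. For loci of 20 to 100 kb the numbers were nearly level, 108 that followed and 93 that opposed of 239, with a median of 0.07, and 36.6% of all genes of that length were higher in NSCs. Under 20 kb, 135 followed (59.7%) and 64 opposed of 226, against 47.3% of all genes of that length. The median locus of tested genes was 34.4 kb in A-to-B bins and 22.9 kb in the series.

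Among the 34 long genes, Anks1b, an adaptor of the postsynaptic density, was at 41.0 and 39.0 FPKM in NSCs and between 0.01 and 0.0685 in STO cells. Rgs7, a regulator of G protein signalling in neurons, was at 35.5 and 42.4 FPKM against 0 in STO cells. Ctnnd2, delta-catenin of dendrites, was at 35.3 and 39.1 FPKM against 0.335, 0.269 and 0.248. No STO sample reached 1 FPKM for any of them, and the differences were 5.30, 5.32 and 4.89. Elmo1, which acts in Rac activation, differed by 4.09, Chrm3, a muscarinic acetylcholine receptor, by 4.06, and the calcium channel gene Cacna1d, at 1.11 and 1.03 FPKM in NSCs, by 1.05.

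**Figure D4:**
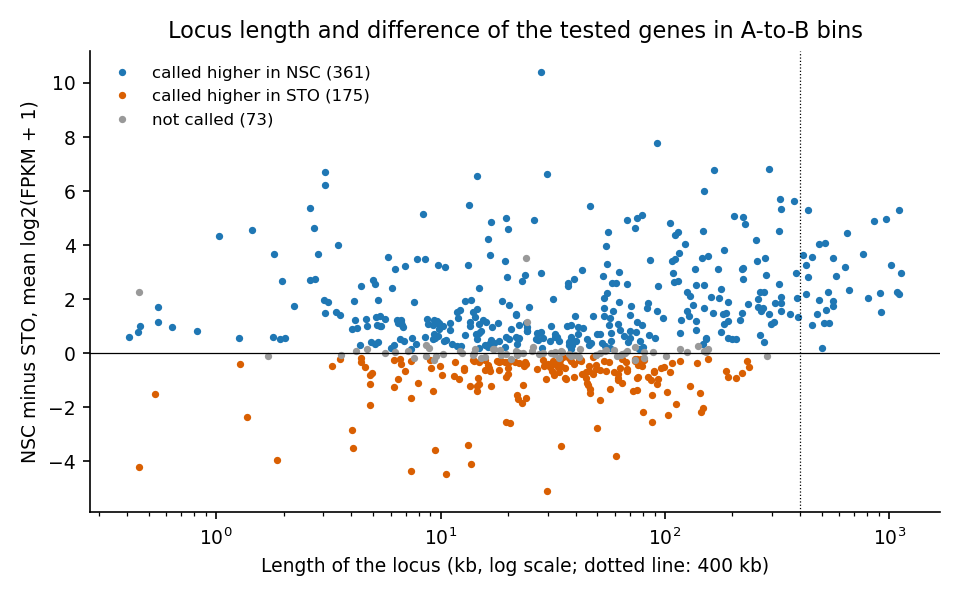
Difference NSC minus STO in mean log2(FPKM + 1) (y axis) against the length of the locus in kb (x axis, log scale) for the 609 tested genes of A-to-B bins, 1 point per gene, coloured by call. Right of the dotted line at 400 kb all 34 genes are called higher in NSC, while between 20 and 100 kb 108 are called higher in NSC and 93 higher in STO.

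Neighbouring A-to-B bins were read as runs. Of the 213 runs, 178 held a tested gene. Genes that followed and none that opposed lay in 73 runs, the reverse in 20, both kinds in 77, and tested genes without a call in 8. Among the 89 runs with at least 3 tested genes, every tested gene followed in 13 (14.6%), none had every gene opposing, and 60 held both kinds.

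The same counts were made for runs of bins with the other letters on the 11 autosomes. Genes of 1 direction alone, higher in NSCs, lay in 41.0% of the A-to-B runs with a tested gene, in 29.3% of the runs listed B in both cell types, in 9.61% of those listed A in both and in 15.8% of those with the opposite letters. Genes higher in STO cells alone lay in 11.2%, 23.1%, 9.96% and 37.6%. Of the runs with at least 3 tested genes, every gene was higher in NSCs in 5 of 75 listed B in both, 2 of 228 listed A in both and 0 of 56 with the opposite letters, where every gene was higher in STO cells in 8. Runs listed A in both held more genes, with a median of 10.5 tested genes where there were at least 3, against 5 in the A-to-B runs and 4 in the others. The differences between these classes of runs were not tested.

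The longest run, 9 bins at chr16:38800001-42400000, held 3 tested genes of 7, and all 3 are adhesion or growth cone genes. Lsamp, of the IgLON family, was at 21.5 and 20.5 FPKM in NSCs and listed at 0 in STO cells. Igsf11, an immunoglobulin adhesion protein, was at 3.89 and 3.81 FPKM against 0.026, 0 and 0.0171, and Gap43 is given above. The median difference of the run was 4.46, and female germline stem cells were listed B in all 9 bins. At chr1:159200001-161200000, 5 bins held Astn1, its neighbour Brinp2 at 19.5 and 19.8 FPKM in NSCs and 0 in STO cells, the Ras GTPase activator Rasal2 at 18.9 and 19.8 against 3.16, 3.44 and 3.01 FPKM, and the non-coding RNA 2810025M15Rik. All 4 followed, with a median of 3.93, though 2810025M15Rik and Rasal2 share 244 bases.

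At chr9:27200001-30400000, 8 bins held the IgLON genes Opcml and Ntm, with loci of 1130 and 969 kb, and the sorting nexin Snx19. Opcml was at 7.4 and 7.70 FPKM in NSCs and at 0.104, 0.0904 and 0.0631 in STO cells, whereas Snx19 was at 10.0 and 9.97 FPKM against 13.1, 13.6 and 14.1. The 2 adhesion genes followed, and Snx19 opposed by -0.41 ± 0.05 (SE, adjusted p = 0.00045). At chr4:153600001-154400000 the 3 tested genes all followed. Hes5 is given above, Prxl2b, a peroxiredoxin-like enzyme, was at 5.63 and 5.62 FPKM against 0.0565, 0 and 0, and Pank4 was at 13 and 12.8 against 11, 9.55 and 11.4. The difference of Pank4 was 0.26 ± 0.08 (SE, adjusted p = 0.020), and without NSC replicate 1 or 2 it was 0.25 or 0.27 and not called. At chr10:115600001-116000000, Kcnmb4, a subunit of calcium-activated potassium channels, was at 22.8 and 27.3 FPKM against 0.176, 0.115 and 0.203, and the antisense RNA Kcnmb4os2, which overlaps it by 361 bases, at 13 and 10.5 against 0. Cnot2, of the CCR4-NOT deadenylase, opposed in the same bin by -0.53.

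The 8 bins of chr1:22800001-26000000 showed both directions among 8 tested genes. Adgrb3, an adhesion G protein-coupled receptor of synapses, was at 11.6 and 11.7 FPKM in NSCs and listed at 0 in STO cells, and B3gat2, which makes the HNK-1 sugar epitope, was at 9.27 and 10.4 against 0. Col19a1, Lmbrd1, Sdhaf4 and Smap1 also followed, by 1.55, 0.84, 0.63 and 0.45. Ogfrl1 was at 1.75 and 1.86 FPKM in NSCs and at 5.20, 5.55 and 5.67 in STO cells, and it and Fam135a opposed, by -1.21 and -0.65.

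In the 5 runs with the lowest medians among those with at least 3 tested genes, from 2 to 6 genes opposed in each and 1 gene followed. At chr3:24800001-27200000, Nlgn1, a synaptic neuroligin, was at 3.56 and 3.77 FPKM in NSCs and at 0.0119, 0 and 0.00978 in STO cells. In the same run Ect2, a regulator of cytokinesis, was at 16.8 and 17.2 FPKM against 42.1, 45.5 and 43.5, and the esterase Nceh1 at 10.8 in both NSC replicates against 21.0, 20.9 and 21.6. Nlgn1 followed by 2.21 and the other two opposed by -1.31 and -0.91. At chr10:89200001-90800000, Anks1b followed by 5.30, while its 5 tested neighbours opposed by -0.28 to -0.97. These were Apaf1, the core of the apoptosome, Uhrf1bp1l, Ikbip, Tmpo, which encodes lamina-associated polypeptides, and the mitochondrial phosphate carrier Slc25a3. The call of Slc25a3 was lost without NSC replicate 2, where its difference was -0.26.

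At chr4:118000001-118800000, 6 of 7 tested genes opposed. Among them were Elovl1, a fatty acid elongase, Med8, Ebna1bp2, Cdc20, the activator of the anaphase-promoting complex, and Slc2a1, the glucose transporter GLUT1, with differences from -1.16 to -0.25. The call of Cdc20 was lost without NSC replicate 1, at -0.24, and that of Slc2a1 without NSC replicate 2 or STO replicate 1, at -0.17 and -0.21. The only gene that followed was a transcript without a symbol in the name table, NM_026601, at 5.30 and 6.07 FPKM against 0. Its locus shares 2746 bases with that of Hyi, which was listed at a mean of 0 in both cell types. In the single bin chr10:87600001-88000000, Dram1 opposed with Nup37, of the nuclear pore, and Gnptab, which makes the lysosomal mannose phosphate tag, by -0.67 and -0.59 for the last 2. Washc3 followed by 0.54, and Chpt1 had a difference of 0.00 ± 0.09 (SE, adjusted p = 0.97). At chr9:109600001-110000000, Map4, a microtubule-associated protein, followed by 0.56, and Nme6, Cdc25a, a phosphatase of the cell cycle, and the pseudogene 3000002C10Rik opposed by -0.82, -0.63 and -0.41. The call of 3000002C10Rik was lost without NSC replicate 1, at -0.25.

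**Figure D5:**
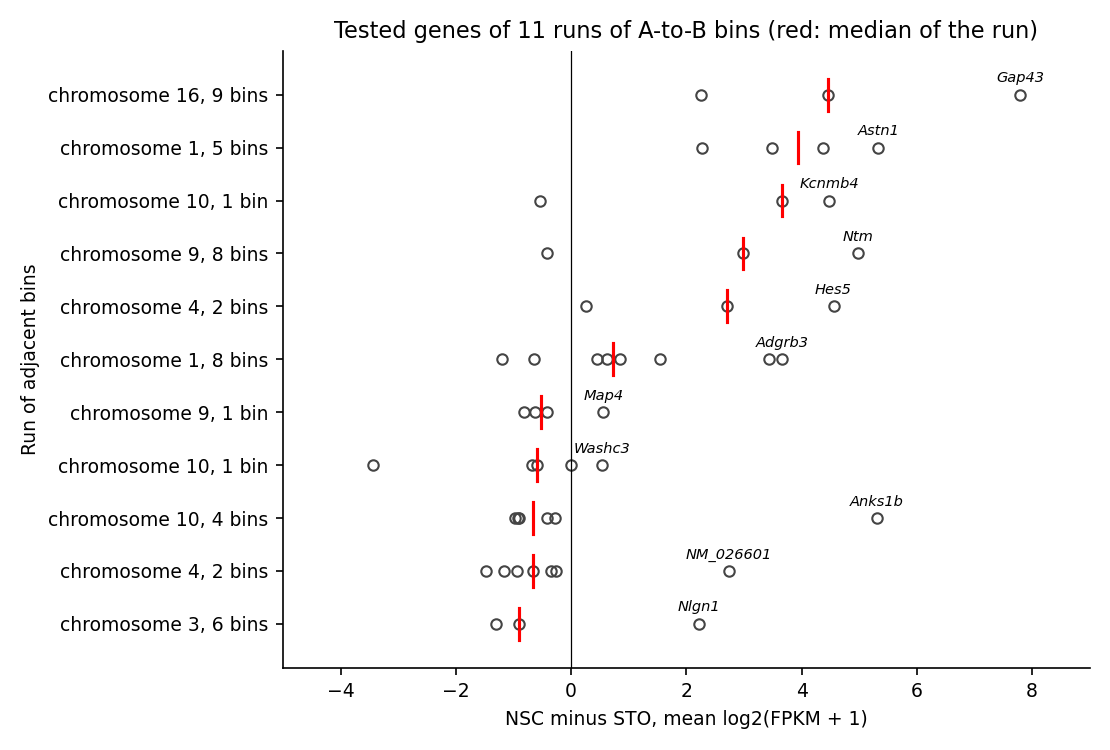
Difference NSC minus STO in mean log2(FPKM + 1) (x axis) of the tested genes of 11 runs of adjacent A-to-B bins (y axis), 1 circle per gene, with the median of each run in red and the highest gene named. The upper 5 runs have medians from 2.70 to 4.46, and in the lower 5, with medians from -0.91 to -0.52, 1 gene of each run is called higher in NSC.

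A gene that followed and a gene that opposed, each by at least 1, lay together in 34 of the 178 runs with a tested gene. In 23 of the 445 bins such genes shared a single bin. Both counts include the bin of Dedd, where it was the only gene that opposed by at least 1 and is uncertain as given above. Of all tested genes, 21.3% were higher in NSCs and 17.1% higher in STO cells by at least 1. The same count was not made for bins with other letters, so it is not shown to be particular to A-to-B bins. Examples were chosen after their values had been seen. At chromosome 13, the locus of Jarid2, a component of the Polycomb complex PRC2, has its upper end at base 45017012. That of Dtnbp1, dysbindin of lysosome-related organelles, has its lower end at base 45017449. Strands were not read, so these ends need not be where transcription starts or stops. Jarid2 was at 12.9 and 13.1 FPKM in NSCs and at 3.08, 2.67 and 2.56 in STO cells. Dtnbp1 was at 13.5 and 12.8 FPKM in NSCs and at 61.9, 61.8 and 65.5 in STO cells. The pair had differences of 1.90 and -2.18 from adjoining loci. Gng2, a G protein gamma subunit, was at 28.1 and 27.1 FPKM against at most 0.0319 in STO cells and shared its bin with Nid2. Prox1 shared a bin with the tyrosine phosphatase Ptpn14, which was at 4.84 and 4.49 FPKM in NSCs and at 21.9, 23 and 21.7 in STO cells.

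Read as sums over whole bins, 271 of the 445 bins reached a mean summed level of 1 FPKM in NSCs or STO cells and were tested among 3279 bins of all autosomes. Of these, 174 (64.2%) were higher in NSCs and 71 (26.2%) higher in STO cells, against 46.1% and 40.8% of all tested bins. With a difference of at least 1 the numbers were 104 (38.4%) and 17 (6.27%), against 19.1% and 15.0%. The median difference was 0.64, beside 0.06 over all tested bins. A sum is led by its most abundant gene. The bin of Igfbp2 summed to 1320 and 1470 FPKM in NSCs and to 0, 0.0132 and 0 in STO cells, and that of Tgfbi to 0.81 and 1.17 FPKM against 40.6, 38.3 and 41.3.

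The same list gives letters for other cell types of the study, whose expression was not analysed here. Female germline stem cells were listed A in 146 of the 445 bins, B in 287 and without a letter in 12. For the NSC minus STO difference, the median was 0.49 over the 270 tested genes of the first group and 0.61 over the 325 of the second. Spermatogonial stem cells were listed A in 202 bins and B in 153, with medians of 0.52 and 0.65, and had no letter in 90. All A-to-B bins of chromosome 4 were among the 90, so neither median covers that chromosome. Induced pluripotent stem cells were listed A in 158 bins, with a median of 0.51, and B in 128, with a median of 1.09 over 94 tested genes. They had no letter in 159. Where these pluripotent cells were listed B, 63 genes followed and 23 opposed, the bins held 3.81 genes per Mb, and the median level in STO cells was from 1.58 to 1.64 on the log2 scale. The differences between these groups were not tested. For these other cell types the sign of the component was not checked here on each chromosome. The 4 bins at chr10:19200001-20800000 were listed A in female and B in spermatogonial stem cells. The 3 at chr10:108000001-109200000 had the reverse, and the 4 at chr10:89200001-90800000 were B in both. Letters in these groups may therefore not mean the same on every chromosome.

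At the edges of the runs, the tested genes whose midpoints lay nearest to an edge on the inside were Zc3h12a, 0.390 kb from it, and Nup153, 0.756 kb from it. Nup153, of the nuclear pore basket, was at 16.3 and 16.5 FPKM in NSCs and at 27.6, 29.5 and 28.0 in STO cells, so both opposed. Nearest on the outside, with midpoints in bins listed A in both cell types, were Sema5a, a semaphorin, 0.332 kb away, and Ivns1abp, 1.59 kb away. The locus of Sema5a, chr15:32174568-32626096, lies partly inside the A-to-B bin at chr15:32000001-32400000, and only its midpoint placed it outside. Sema5a was at 4.39 and 4.51 FPKM in NSCs and at 4.67, 4.69 and 3.89 in STO cells, which overlapped, and its difference was 0.01 ± 0.08 (SE, adjusted p = 0.89). Ivns1abp was higher in NSCs by 0.36 ± 0.08 (SE, adjusted p = 0.0044). Over genes at midpoints this close to an edge, the letter depends on where the 400-kb grid falls.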

How the data were processed

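RNA-seq of 2 NSC and 3 STO samples was used. By the study's methods and the submitters' processing notes, stranded mRNA libraries were aligned to mm9 with HISAT2 4.8.2 and quantified with Cufflinks 2.2.1; the strand setting of the quantification is not given in the sources used here. The authors deposited FPKM values with interval bounds, also in FPKM, for 40201 RefSeq transcripts. Depth was already divided out, and the implied fragments were computed by taking the upper bound as 2 standard deviations above a count with Poisson error. Symbols were matched through RefSeq identifiers (99.4%), and FPKM was summed per symbol and locus. A gene belonged to the bin that held its midpoint.

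Tests were made on log2(FPKM + 1) with R 4.3.3 and limma 3.58.1, using lmFit and then eBayes (trend), Benjamini-Hochberg adjusted over all 12292 genes or 3279 bins with a threshold of 0.05. Data were also simulated with independent normal noise and 200 genes or bins changed. Of the 12292 genes, 92 of 100 given a difference of 1, 99 of 100 given 2 and 7 unchanged genes were called. For the 3279 bins the numbers were 100 of 100, 100 of 100 and 11. In the real comparison 43.7% of genes were called higher in NSCs and 41.9% higher in STO cells, so these numbers are not its error rate. Tables and figures used Python 3.11.15, pandas 2.3.3 and matplotlib 3.10.9. The bins and gene lists were chosen with earlier results of these data known. Named were the 10 largest called differences in each direction without overlap, up to 6 genes per list, the tested genes of the 3 longest runs and of the 5 runs each with the highest and lowest medians among runs with at least 3 tested genes, the 3 genes with the highest mean FPKM over the 5 samples and the genes nearest an edge. Other genes named were chosen after their values were seen. Alternatives changed the pseudocount, the filter, the normalization, the letters used, the replicates and the replicate block. Values of some genes that the naming rule takes are not reported here.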

Additional observations from a re-analysis of the deposited data

How the results depend on the processing

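More genes and more bins were called higher in NSCs than in STO cells under every alternative run, though over all 19 autosomes the genes came to 1766 and 1699 with a median difference of 0.023, and the bins to 474 and 374. The median difference was 0.55 as reported, 0.61 with a pseudocount of 0.1, 0.41 with a minimum mean of 5 FPKM, 0.17 over genes above 0 in any sample and 0.45 with quantile normalization, which shifted the median of all tested genes by -0.06. Calls of a difference of at least 1 left 53 genes higher in STO cells, and 104 bins higher and 17 lower in NSCs. After the values were seen, loci of 400 kb or more were left out, which gave 327 genes that followed and 175 that opposed with a median of 0.46, and protein-coding genes alone gave 341 and 170. Without 1 replicate at a time, 337 to 357 genes followed and 155 to 172 opposed, the median was 0.52 to 0.56, and 166 to 174 bins were higher and 65 to 71 lower. Chpt1, not called, was called at 0.147 without NSC replicate 1, and was at -0.14 without NSC replicate 2 and at -0.004 without STO replicate 3.

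Labels number replicates 1 and 2 in both cell types, and nothing says that the numbers pair them. Deviations from the group means correlated at 0.00752 and 0.0609 for equal numbers and at -0.0609 to 0.0503 for others. Blocking on the replicate number, 352 genes followed and 171 opposed, 173 bins were higher and 69 lower, and Chpt1 was at -0.004. Of the 609 tested genes, 21 had another call under the block, none of them named in the report. The depth of the samples limits genes of low FPKM, of which 290 in the A-to-B bins were above 0 and not tested.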
